A study of Mus musculus with 6 samples.

Results

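The Ifitm genes encode the interferon-induced transmembrane proteins, and the mouse family members Ifitm1, Ifitm2, Ifitm3, Ifitm5 and Ifitm6 were read here in RNA of sorted bone marrow multipotent progenitors (MPPs). The members were chosen by gene symbol from the platform's probe-to-gene table, and where a gene had several features (probe sets with a value of their own) the feature with the highest mean over the 6 arrays stood for it, so the only measured value the choice used was that mean. That gave 5 genes of the 19938 with a single-gene feature, measured by 8 features of the 23410 tested. The family was singled out after an earlier look at the same arrays, so the values below describe these arrays, and no p-value among them is independent support. Values of different features are not comparable in level, so each gene is compared only with itself.

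IFITM proteins are small membrane proteins of the cell surface, endosomes and lysosomes that hinder the fusion of enveloped viruses with cell membranes. Several of the genes are induced by interferons, and stem and progenitor cells of many tissues also express some of them without infection. The branches differ by cell type: Ifitm1, Ifitm2 and Ifitm3 are broadly expressed, Ifitm6 is known mainly from myeloid cells, and Ifitm5 is a gene of bone-forming osteoblasts.

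The cells were untreated, and the only contrast the labels name was genotype, with 3 arrays of wild-type (WT) mice and 3 arrays of mice labelled Lxn-/-. Sex-linked signal also differed between the arrays, as given below. The Lxn-/- mice lack exons 2 through 4 of Lxn, the gene of the carboxypeptidase inhibitor latexin, and the protein itself, per the labels. All mice were C57BL/6, 8 to 12 weeks old and labelled female, and each sample pooled about 100000 cells of 10 to 20 mice, sorted as lineage-negative, Sca-1, c-Kit and CD34 positive cells that were also positive for the receptor written Flt2 in the series text. The series title names long-term stem cells, while the sample labels and the gate name multipotent progenitors. The labels name no cell type to which the deletion would be limited.

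Facts of the arrays that touch every result came first. Kit, Flt3 and Cd34, the genes of the gate analysed here, were bright in all arrays, with list means of 12.74 to 12.75 in WT and 12.42 to 12.82 in Lxn-/-. Each was lowest in Lxn-/- array 1, with Kit at 11.48 there against 12.05 to 12.19 in the other arrays. In the limma fit with array weights, Lxn-/- array 1 also had the lowest weight (0.36, the others 0.64 to 1.58). Lxn itself did not separate the groups (-0.22, SE 0.15, limma adjusted p 0.459), and the exons its probes read are unknown here, so the groups carry their labels only. Xist, the RNA that silences an X chromosome in female cells, was 13.13 to 13.23 in WT and 13.17 in Lxn-/- array 2, but 6.86 and 5.85 in Lxn-/- arrays 1 and 3. The Y-linked gene Eif2s3y was 8.57 and 9.36 in those 2 arrays and at most 3.97 in the other 4. Arrays 1 and 3 labelled Lxn-/- therefore go against the label female, and the Ifitm1 and Ifitm6 results are also given for array 2 alone.

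The stretches just before the transcription start of 4 members are shown because the genes differ in the interferon-response letters they carry there. They come from RefSeq on GRCm38.p6 (all 5 members matched, 1 start each), 120 bases each, 5′ to 3′ on the gene's strand, in lower case with motif matches in capitals. The gene table's spans of Ifitm1 and Ifitm2 reach further upstream than the start used, so their stretches lie inside those spans.
Ifitm1, chr7:140967956-140968075, + strand: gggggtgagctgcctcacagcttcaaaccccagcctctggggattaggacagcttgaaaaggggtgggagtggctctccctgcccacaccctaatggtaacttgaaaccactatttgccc
Ifitm2, chr7:140955962-140956081, - strand: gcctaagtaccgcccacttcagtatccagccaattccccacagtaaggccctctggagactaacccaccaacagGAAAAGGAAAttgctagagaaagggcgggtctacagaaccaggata
Ifitm3, chr7:141010745-141010864, - strand: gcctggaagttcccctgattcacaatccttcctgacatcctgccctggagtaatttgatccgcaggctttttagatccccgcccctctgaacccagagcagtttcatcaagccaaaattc
Ifitm6, chr7:141016893-141017012, - strand: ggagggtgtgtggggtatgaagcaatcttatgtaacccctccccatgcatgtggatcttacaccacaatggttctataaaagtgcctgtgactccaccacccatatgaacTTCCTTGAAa
The capitals in Ifitm2 mark a match to the interferon-stimulated response element (ISRE, searched on both strands as GAAA, any 2 bases, GAAA), which begins 46 bases before the start. The capitals in Ifitm6 mark a match to the interferon-gamma activated site (GAS, searched as TTC, any 3 bases, GAA, a pattern that reads the same on both strands), which begins 10 bases before it.

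In Ifitm3 the ISRE letters lie just past the annotated start, beginning at bases 3 and 20 of the transcript, and the latter overlaps a GAS match that begins at base 14.
Ifitm3 response element, chr7:141010716-141010742, - strand: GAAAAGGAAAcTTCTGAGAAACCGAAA
Over the full window of 300 bases, 250 before and 50 after the start, an ISRE match was found for Ifitm2 and Ifitm3 and a GAS match for Ifitm3 and Ifitm6. Among all 32851 such windows, 3.44% held the ISRE letters and 8.3% the GAS letters. Ifitm6 held a further pair of matches to the composite letters of ETS and IRF factors (GGAA, any 2 bases, GAAA, on both strands), which begin 241 and 199 bases before the start and lie outside the stretch printed above. Any match to these letters, single or several, was found in 2.72% of windows. No base of the Ifitm6 pair lies in a match to another pattern. In the windows of Ifitm1 and Ifitm5 none of the 3 patterns was found, which says only that these letters are not in these windows.

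Ifitm6 and Ifitm1 were higher in all 3 Lxn-/- arrays than in any WT array, while Ifitm2 and Ifitm3 were nearly level and Ifitm5 was slightly lower. The mean difference (Lxn-/- minus WT, log2) was 0.66 for Ifitm6 and 0.55 for Ifitm1, or 1.58-fold and 1.46-fold. None of the 5 members passed an adjusted p of 0.05 in limma, where 0.0% of all tested features passed and the smallest adjusted p was 0.340. Means were higher in Lxn-/- for 4 of the 5, beside 42.2% of all features. At an unadjusted p under 0.05 there were 2 members, Ifitm1 and Ifitm6, beside 14.3% of all features. The groups did not overlap, with Lxn-/- higher, in the same 2 members, beside 8.54% of all features. Because the family was chosen with such values known, nothing is read from these shares.

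**Figure D1:**
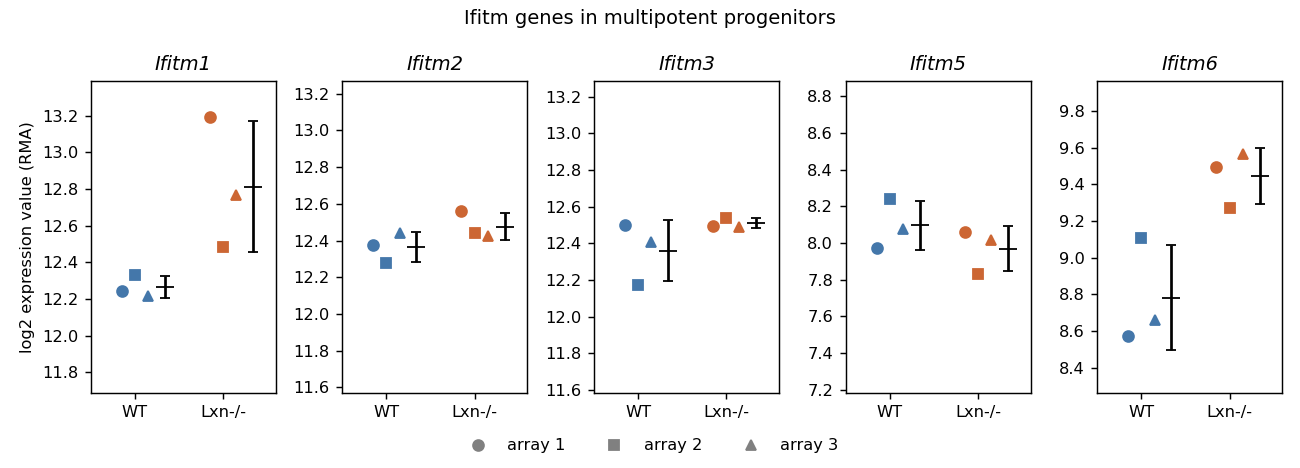
Log2 expression values of the 5 Ifitm genes (y axis, RMA values; each panel spans 1.7 log2 units) in the 3 WT (blue) and 3 Lxn-/- (orange) arrays, with symbols for array number and black marks for mean ± SD, n = 3. Ifitm1 and Ifitm6 have all Lxn-/- points above all WT points, and the other 3 genes overlap.

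Ifitm1, the branch member known from primordial germ cells and from hematopoietic stem cell profiles, had the most uneven values of the members within the Lxn-/- group. It was 12.24, 12.33 and 12.22 in WT arrays 1, 2 and 3, and 13.19, 12.48 and 12.77 in Lxn-/- arrays 1, 2 and 3. The WT arrays lay close together, and the Lxn-/- arrays spread from just above them to far above, with the gap between the groups at 0.15. The means were 12.26 ± 0.06 (SD, n = 3) in WT and 12.81 ± 0.36 (SD, n = 3) in Lxn-/-, a difference of 0.55 (SE 0.16, limma adjusted p 0.340).

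The other feature of Ifitm1, with a lower mean over the 6 arrays (11.72 against 12.54 for the chosen one), ran in parallel. It was 11.33, 11.46 and 11.40 in WT and 12.61, 11.58 and 11.94 in Lxn-/- arrays 1, 2 and 3, a difference of 0.65 (SE 0.22, limma adjusted p 0.340). Both features put the Lxn-/- arrays in the order 1, 3, 2. Their mean absolute difference after centring was 0.08 log2 over the 6 arrays, against 0.24 between the chosen features of Ifitm1 and Ifitm2.

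Array 1 carried much of the Ifitm1 difference. Without Lxn-/- array 1 it was 0.36 (SE 0.11, limma adjusted p 0.136), with array 2 as the only Lxn-/- array 0.22 (SE 0.13, adjusted p 0.476), and without array 2 0.71 (SE 0.14, adjusted p 0.0565). The 2 arrays with higher Ifitm1 were those with Y-linked signal. The part of that signal in the result was not tested.

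Ifitm6, the myeloid branch member, separated the groups with less dependence on a single array. It was 8.57, 9.11 and 8.66 in WT arrays 1, 2 and 3, and 9.49, 9.27 and 9.57 in Lxn-/- arrays 1, 2 and 3. WT array 2 was the highest of its group, 0.16 below Lxn-/- array 2, the lowest of the other. The means were 8.78 ± 0.29 (SD, n = 3) and 9.44 ± 0.15 (SD, n = 3), a difference of 0.66 (SE 0.15, limma adjusted p 0.340, unadjusted p 0.00158). By unadjusted p it was number 58 of the 23410 features, and 110 features, 0.470% of all, had a difference at least as large in that direction.

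With array 2 as the only Lxn-/- array, the one without Y-linked signal, the Ifitm6 difference was 0.49 (SE 0.20, limma adjusted p 0.372). It was 0.64 without Lxn-/- array 1 and 0.83 without WT array 2. In each of these fits Ifitm6 stayed on the higher side in Lxn-/-, and arrays 1 and 3, with Y-linked signal, were the higher ones here too.

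**Figure D2:**
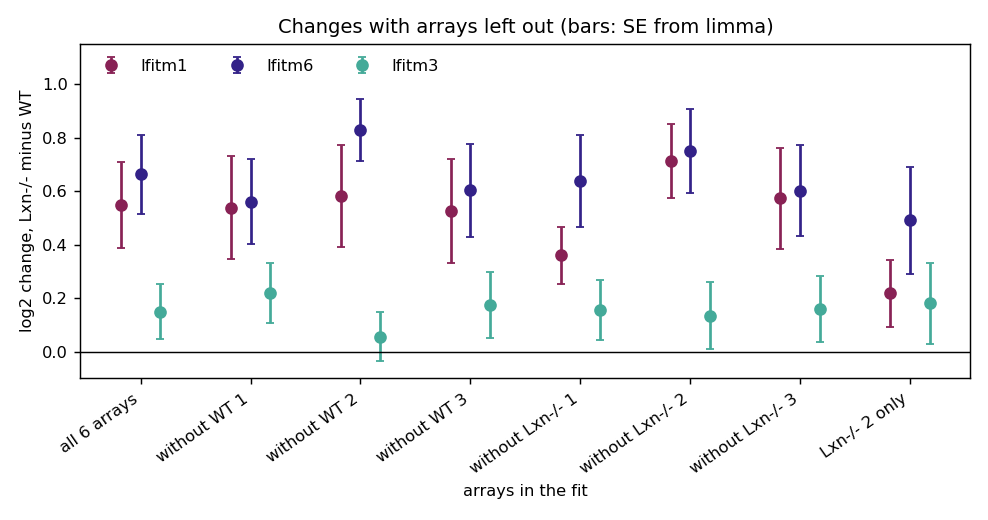
Log2 difference (Lxn-/- minus WT, y axis) of Ifitm1, Ifitm6 and Ifitm3 with the arrays named on the x axis left out of the limma fit; points are estimates and bars are SE. Ifitm1 falls to 0.36 without Lxn-/- array 1 and 0.22 with array 2 alone, while Ifitm6 stays between 0.49 and 0.83.

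Ifitm3, the family member best known for restricting influenza virus, was nearly level. It was 12.50, 12.17 and 12.41 in WT and 12.50, 12.54 and 12.49 in Lxn-/- arrays 1, 2 and 3. The Lxn-/- arrays agreed within 0.05 log2 and WT array 1 lay among them, with WT array 2 the lowest. The difference was 0.15 (SE 0.10, limma adjusted p 0.464), and 0.06 without WT array 2.

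Ifitm2, its close relative, was level as well. It was 12.38, 12.28 and 12.44 in WT and 12.56, 12.44 and 12.42 in Lxn-/- arrays 1, 2 and 3, a difference of 0.11 (SE 0.09, limma adjusted p 0.527). The groups overlapped, with Lxn-/- array 1 the highest of all 6. Its other features, with means of 12.05 and 11.77 over the 6 arrays against 12.42 for the chosen one, gave differences of 0.07 (SE 0.09) and 0.11 (SE 0.08). The groups of the latter did not overlap, at 11.64 to 11.76 in WT and 11.80 to 11.84 in Lxn-/-, a gap of 0.04. Of all features, 8.54% had such a gap with Lxn-/- higher. The 3 features followed each other closely, at a mean absolute difference of 0.03 log2 after centring. Ifitm2 and Ifitm3 had the smallest such difference of any pair of members (0.08). This measure is small for any genes that vary little, and they spanned only 0.29 and 0.37 log2 over the arrays. It therefore shows no shared pattern. The family's genes resemble each other in sequence and the probe positions are unknown here, so signal shared between Ifitm1, Ifitm2 and Ifitm3 cannot be told apart.

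Ifitm5, which encodes the bone protein also named BRIL, was the only member with a lower mean in Lxn-/-. It was 7.97, 8.24 and 8.08 in WT and 8.06, 7.83 and 8.02 in Lxn-/- arrays 1, 2 and 3, with overlapping groups and a difference of -0.13 (SE 0.11, limma adjusted p 0.533). Its values were close to the median of all tested features (7.77), and above the 95th percentile of olfactory and vomeronasal receptor features (7.17), genes with no known role in blood. Osteoblast genes were lower beside it: all 7 measured of 10 listed had lower means in Lxn-/- (median -0.17, 0 passing), among them the collagen genes Col1a2 (-0.33, SE 0.10) and Col1a1 (-0.26, SE 0.10). The mean level of that list was 6.91 to 6.96 in WT and 6.68 to 6.85 in Lxn-/-, with 4 of the 7 below 7.17. The olfactory and vomeronasal receptor features also had a median difference of -0.17. After quantile normalization 3 of the 7 osteoblast genes were higher and 4 lower (median -0.03). Whether the Ifitm5 feature reads Ifitm5 RNA in these cells cannot be told from its level.

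The relatives outside the cluster had lower means in Lxn-/-, as had most genes that flank it. Ifitm7, which lies on chromosome 16, was 8.47, 8.29 and 8.29 in WT and 7.88, 8.36 and 8.20 in Lxn-/- (difference -0.20, SE 0.13, limma adjusted p 0.442). That difference was -0.07 without Lxn-/- array 1, and 0.0098 with array 2 as the only Lxn-/- array. Ifitm10, farther along chromosome 7, was 7.31, 7.42 and 7.30 in WT and 7.27, 7.07 and 6.93 in Lxn-/- (-0.25, SE 0.11, limma adjusted p 0.344), with all Lxn-/- values below WT by a gap of 0.03. Of the other dispanin genes, which share the CD225 domain, all 5 measured of 8 listed had lower means in Lxn-/- (median -0.15, 0 passing), beside a median of -0.04 over all features. The difference varied with level: features in the same decile of mean level as Ifitm10 and Prrt1 had a median of -0.12. In the deciles of Trarg1 and Tmem91 it was -0.14 and 0.07. After quantile normalization 2 of the 5 dispanin genes were higher and 3 lower (median -0.05). Trarg1, a regulator of glucose transporter traffic, had the largest statistic of the 5 dispanin genes (-0.32, SE 0.10).

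The 5 members lie next to each other on chromosome 7 in the gene order of GRCm38.p6, with 2 predicted genes among them. Of the 5 measured and named genes on each side, 8 of 10 had lower means in Lxn-/-, at a median of -0.11 and with 0 passing. Over all features, 42.2% had higher means in Lxn-/-. Psmd13, a proteasome subunit gene, was highest at 0.25 (SE 0.10), and Ano9, a gene of the anoctamin family, lowest at -0.27 (SE 0.09). Features in their deciles of mean level had medians of 0.09 and -0.14. Ano9 was dim, with a mean of 6.70 over the arrays, below the 95th percentile of receptor features (7.17). No flanking gene had a difference as large as that of Ifitm1 or Ifitm6. Of all features, only 0.598% and 0.470% reached those of Ifitm1 and Ifitm6 in that direction, so nothing is read from this.

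**Figure D3:**
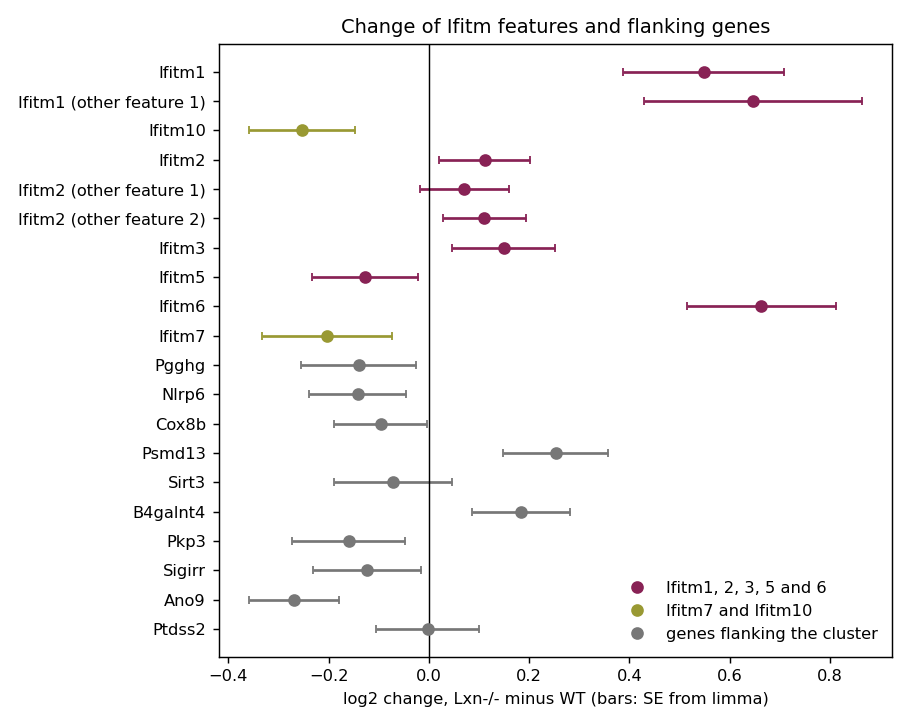
Log2 difference (Lxn-/- minus WT, x axis) with its limma SE for every feature of the Ifitm genes and for the 5 measured genes on each side of the cluster, n = 3 arrays per group. Ifitm1 (both features) and Ifitm6 lie between 0.55 and 0.66, and the other points lie between -0.27 and 0.25.

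In the fit with all arrays, interferon-stimulated genes as a group showed no common direction beside Ifitm1 and Ifitm6. Of 45 listed antiviral effectors 40 were measured, and 20 had higher and 20 lower means in Lxn-/-, at a median of 0.00 to the second decimal (-0.0032) and with 0 passing (smallest limma adjusted p 0.352). The smallest p-values among them belonged to Gbp3, a guanylate-binding GTPase (0.26, SE 0.12), Bst2, the virus-tethering protein tetherin (0.23, SE 0.11), Ifi44l (-0.15, SE 0.10) and Iigp1, an immunity-related GTPase (-0.41, SE 0.30). Ifi44l was dim, with a mean of 6.00 over the arrays, below the 95th percentile of receptor features (7.17). Features in its decile of mean level had a median of -0.14. With all arrays, none of the 40 had a difference as large as that of Ifitm1. Few features did: 140, or 0.598% of all, in that direction. Because the family was chosen with such values known, nothing is read from that. Nor was Ifitm1 apart from the 40 in every array. With array 2 as the only Lxn-/- array, 39 of the 40 were higher in Lxn-/- and 1 lower. Their median difference was then 0.23, beside 0.22 for Ifitm1.

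The effectors split by array. Their median relative to the WT mean was 0.05, -0.10 and 0.08 in the WT arrays and -0.33, 0.23 and 0.07 in Lxn-/- arrays 1, 2 and 3. In 31 of the 40 the lowest value of all 6 arrays was in Lxn-/- array 1, and in 29 the highest was in Lxn-/- array 2. Ifitm1 had the opposite order among these arrays, highest in array 1 and lowest in array 2. Without Lxn-/- array 1, 38 of the 40 effectors had higher means in Lxn-/- (median 0.13), and without array 2 only 8 did (median -0.14). The antiviral list therefore has no direction that holds over the arrays, and its median also turned from -0.06 after quantile normalization to 0.05 after median centring.

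**Figure D4:**
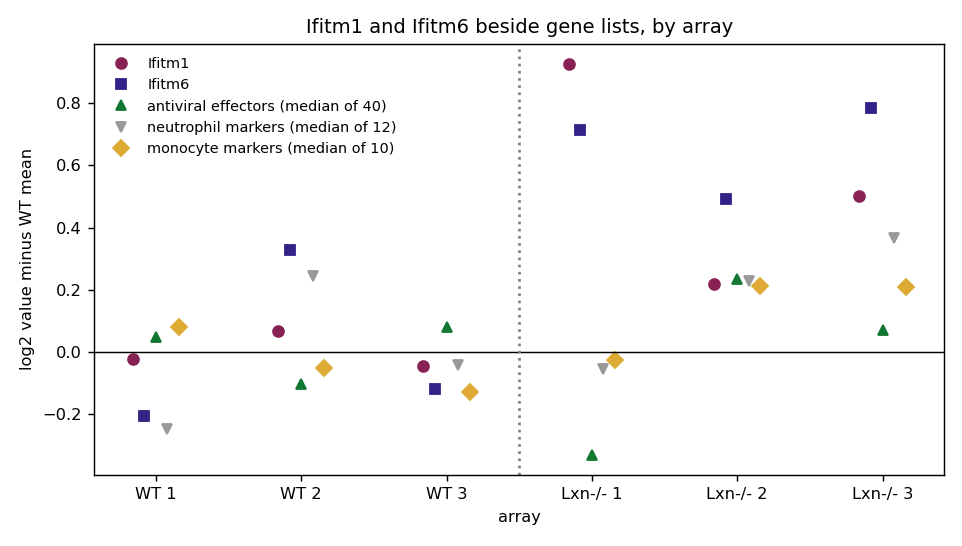
Log2 value minus the WT mean (y axis) in each of the 6 arrays (x axis) for Ifitm1, Ifitm6 and the medians of the antiviral effector, neutrophil and monocyte lists; the dotted line parts WT from Lxn-/-. In Lxn-/- array 1 Ifitm1 is at 0.93 and the antiviral median at -0.33, and in array 2 they are at 0.22 and 0.23.

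Interferon receptors and their signalling genes were mixed. Of 18 listed 17 were measured, 7 with higher and 10 with lower means in Lxn-/- (median -0.02, 0 passing). The median was 0.11 without Lxn-/- array 1. Irf8, the transcription factor of the monocyte and dendritic cell lineages, was 11.26, 10.97 and 10.88 in WT and 11.50, 11.45 and 11.42 in Lxn-/- (0.42, SE 0.11, limma adjusted p 0.340), with no overlap between groups. Such a gap, with Lxn-/- higher, was found in 4 of the 17, beside 8.54% of all features. Ptpn2, a phosphatase that limits JAK-STAT signals, was at 0.29 (SE 0.12), and the interferon receptor genes Ifnar2 and Ifngr2 were at 0.18 (SE 0.09) and 0.18 (SE 0.10).

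Among 13 listed partners and modifying enzymes of IFITM proteins 12 were measured, 7 higher and 5 lower (median 0.01, 0 passing). Zmpste24, a membrane protease that acts with IFITM proteins against viruses, was 10.51, 10.46 and 10.51 in WT and 10.77, 10.72 and 10.68 in Lxn-/- (0.23, SE 0.08, limma adjusted p 0.340). Those groups did not overlap, as in 3 of the 12 with Lxn-/- higher, beside 8.54% of all features. The Lxn-/- arrays lay within 0.09 log2 of each other. Vapa, an endoplasmic reticulum protein that binds IFITM3, was at 0.25 (SE 0.11), and the demethylase gene Kdm1a at 0.17 (SE 0.09). Nedd4, the ubiquitin ligase that marks IFITM3 for turnover, was at -0.22 (SE 0.12), with 11.85 in Lxn-/- array 1 against 12.33 to 12.34 in WT.

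Genes of maturing myeloid cells went both ways beside Ifitm6, with the brighter monocyte and macrophage markers mostly higher in Lxn-/-. Of 12 listed monocyte and macrophage markers 10 were measured, 5 higher and 5 lower in Lxn-/- (median 0.08, 0 passing), and the list mean was 8.81 to 9.02 in WT and 8.93 to 9.17 in Lxn-/-. Ccr2, the chemokine receptor of inflammatory monocytes, was 8.84, 8.27 and 8.22 in WT and 9.34, 9.10 and 9.14 in Lxn-/-, 0.75 higher (SE 0.16, limma adjusted p 0.340). Csf1r (0.50, SE 0.14), Ms4a6c (0.56, SE 0.18) and Cd68 (0.32, SE 0.12) also had all Lxn-/- values above all WT values. With Ccr2 that made 4 of the 10 markers, beside 8.54% of all features. The list was chosen with earlier results known, so nothing is read from that share. Lyz2, the lysozyme of myeloid cells, was at -0.04 (SE 0.18), and the integrin gene Itgam was 9.70 to 9.80 in WT and 9.17 to 10.19 in Lxn-/-. The mature macrophage markers Adgre1, Cd14 and Fcgr1 were below 7.17, the upper level of receptor features, on average over the arrays. Among features above the median level 7 of the 10 markers were left, 5 higher and 2 lower (median 0.32). The list median was 0.26 without Lxn-/- array 1.

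Neutrophil granule and receptor genes were higher in 10 of 12 (median 0.23, 0 passing), with overlapping list means of 10.29 to 10.79 in WT and 10.48 to 10.85 in Lxn-/-. The median was 0.0688 without WT array 1, with 9 of 12 higher, and 0.36 without WT array 2, with 12 of 12 higher. The primary granule genes Mpo and Ctsg were at 0.03 (SE 0.12) and 0.35 (SE 0.12). Relative to the WT mean the list median was -0.25, 0.24 and -0.04 in WT arrays 1, 2 and 3, and WT array 2 was also the WT array with the highest Ifitm6. In Lxn-/- array 1 the median was -0.06 while Ifitm6 was 0.71 above its WT mean. The part of more mature myeloid cells in the Ifitm6 difference was not tested, and in sorted pools a change in RNA per cell and a change in the share of cells of one type cannot be told apart.

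The genes whose pattern over the 6 arrays was most like that of Ifitm1 were Ifi30, Prss57, Cox6a2, Fads2 and Orc1, by the smallest mean absolute difference of centred log2 values among 9509 genes of at least median level. Ifi30, an interferon-gamma-inducible thiol reductase of lysosomes, was 9.33, 9.47 and 9.13 in WT and 10.22, 9.49 and 9.79 in Lxn-/- arrays 1, 2 and 3, a mean distance of 0.05 log2 from Ifitm1. Prss57, a serine protease of myeloid granules, followed at 0.07, with 9.17, 9.28 and 9.17 in WT and 10.06, 9.58 and 9.55 in Lxn-/-. Because these genes were picked for that likeness, the order of the arrays they share with Ifitm1 is no result of its own.

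For Ifitm6 the 5 nearest genes were Lgmn, Fcgr2b, Bag3, Dglucy and Plod1, at mean distances of 0.12 to 0.15 log2. Lgmn, the lysosomal protease legumain, was 7.98, 8.09 and 8.13 in WT and 8.74, 8.54 and 8.74 in Lxn-/-. Fcgr2b, the inhibitory Fc receptor of B cells and myeloid cells, was 8.76 to 9.18 in WT and 9.52, 9.26 and 9.38 in Lxn-/- arrays 1, 2 and 3. The same holds for their likeness to Ifitm6. The remaining members spanned less than 0.5 log2 over the arrays, and no such genes were sought for them.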

How the data were processed

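Total RNA (100 ng) of sorted progenitors went onto Affymetrix MoGene-1-0-st-v1 arrays, per the labels' protocols and series text. The file the authors deposited holds log2 values of 35557 features, made with RMA; RMA and Partek 6.0 stand in the submitters' processing notes. The values run from 2.93 to 14.78 over the tested features, from which the log2 scale was taken. RMA brings arrays to a common distribution, so total RNA per cell cannot be compared. For scan dates, probe positions and the genome build: not given in the sources used here. A value of one feature is not comparable in level with that of another, so members are compared within a gene only, and the 6 arrays limit the precision.

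Titles of the samples gave groups and replicate numbers. Names of features came from the platform's table of probes and genes (21789 with 1 symbol, 1621 with several, 12147 with none), with symbols updated by Entrez identifier in the GRCm38.p6 gene table (21698 matched). The 23410 features with a symbol were fitted with limma 3.58.1 (R 4.3.3; lmFit, then eBayes; two-sided, Benjamini-Hochberg over all of them, threshold 0.05). The fit was tested on simulated arrays. Each array is a pool of mice, so p-values measure the spread between pools. Deviations of same-numbered arrays were barely correlated (0.08, -0.0076 and -0.0057), which cannot exclude that these arrays were handled together. The labels do not say whether the numbers pair them, and the main fit left them unpaired.

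The members and the gene lists were chosen with earlier results of these data known. The 5 members, Ifitm7, Ifitm10, the gate genes, Lxn, Xist and Eif2s3y are always named, with up to 4 members of each list by moderated statistic or, for markers, by level, up to 5 neighbours a side, and 5 genes of like pattern for members spanning at least 0.5 log2. The marker lists covered stem, monocyte, neutrophil, B, T and NK, erythroid, endothelial and osteoblast cells. Ccr2, Csf1r, Adgre1, Cd14, Fcgr1, Fhl1, Cdh5 and Kdr were named after their values were seen. Features with several symbols were left unnamed. Alternatives were the replicate block, each array left out, Lxn-/- array 2 alone, quantile normalization, median centring, brighter features only, all rows, trend and robust eBayes, array weights, other features of a gene and other thresholds. Plots used matplotlib 3.10.9 (Python 3.11.15).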

Additional observations from a re-analysis of the deposited data

How the results depend on the processing

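The direction of all 5 members held under every alternative run for the chosen features, and for their other features in the main fit. The Ifitm2 feature at 0.07 in the main fit was at -0.0118 after quantile normalization. Ifitm1 ranged from 0.22 to 0.71 (limma adjusted p from 0.0565 to 0.644), Ifitm6 from 0.49 to 0.83 (0.0849 to 0.644), Ifitm2 from 0.04 to 0.17, Ifitm3 from 0.06 to 0.22 and Ifitm5 from -0.27 to -0.06. None passed an adjusted p of 0.05 or 0.1 with all arrays, and 2 had an unadjusted p under 0.05, as had 3346 of all features. With the replicate number as a block 1 feature passed, Lrmda, and the adjusted p of Ifitm1 and of Ifitm6 was 0.300, so the block changed no call of a member. With Lxn-/- array 2 as the only Lxn-/- array, whose spread was then taken from WT, 3 features passed (Lrmda, Adck1 and 1 of several symbols, named after their values were seen); with each array left out, from 0 to 145 did, the highest without Lxn-/- array 2.

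With Lxn-/- array 2 alone the medians were 0.23 for antiviral effectors, 0.13 for receptors and signalling, 0.21 for monocyte and -0.32 for osteoblast markers. Over the left-out arrays they ran from -0.0629 to 0.11 for receptors and signalling, -0.00820 to 0.0673 for IFITM partners, 0.0251 to 0.26 for monocyte and -0.17 to -0.10 for endothelial markers. Quantile normalization gave -0.0490 for endothelial and -0.0310 for osteoblast markers, and median centring 0.0708 for IFITM partners and -0.0809 for endothelial markers. Among brighter features only, the medians were 0.32 for monocyte, 0.0171 for B cell, 0.15 for T and NK cell, -0.60 for erythroid, -0.19 for endothelial and -0.30 for osteoblast markers, where fewer genes were tested. For the others the cause was not tested. With 3 arrays a group, the Ifitm2, Ifitm3 and Ifitm5 differences were within about 1.5 SE of 0, which does not show that these genes were equal.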

Other observations

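Markers of other cells that the gate could hold showed no passing member in either direction, where 0.0% of all tested features passed. The counts by direction below are therefore descriptions only. Stem cell markers were lower in Lxn-/- in 13 of 14 (median -0.22), with list means of 8.33 to 8.53 in WT and 7.93 to 8.31 in Lxn-/-, and the median was -0.14 without WT array 2. With Lxn-/- array 2 as the only Lxn-/- array 9 of the 14 were lower (median -0.12). Hlf was at -0.54 (SE 0.25), Gata2 at -0.51 (SE 0.20), Fhl1 at -0.49 (SE 0.10) and Meis1 at -0.11 (SE 0.12). Erythroid markers were lower in all 7 measured (median -0.35, and -0.21 without WT array 2), with Car1, a carbonic anhydrase gene, at -0.78 (SE 0.38) and Aqp1, a water channel gene, at -0.66 (SE 0.25). Ifitm6 thus ran opposite to both lists in the comparison of group means, while WT array 2 held the highest WT values of Ifitm6 and of the erythroid list (0.38 above the WT mean).

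B cell markers were lower in 5 of 7 (median -0.12, and from -0.18 without WT array 1 to -0.0122 without WT array 2). T and NK cell markers were split with 4 higher and 4 lower (median 0.01, and from -0.0963 without Lxn-/- array 1 to 0.0893 without Lxn-/- array 3), and endothelial markers were lower in 8 of 10 (median -0.14). Cdh5 and Kdr, which define endothelium, were below the 95th percentile of receptor features on average. Of the T and NK list 5 of 8 and of the B cell list 4 of 7 were as dim as that.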
